A study of Mus musculus with 6 samples.

Results

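The genes described here are 10 transcription factors that pattern the midbrain and hindbrain: En1, En2, Pax2, Pax5, Pax8, Otx1, Otx2, Lmx1a, Lmx1b and Barhl1. They were picked by name, and all 10 were found by Ensembl identifier among the 46983 genes of a count table of RNAseq. The RNA came from GFP+ neural crest cells (NCCs) sorted from E11.25 mouse embryos, 3 of them controls and 3 deficient in BAF155 and BAF170. Control embryos were Wnt1Cre/+;BAF155flox/+;BAF170flox/+;Rosa26mTmG/+, so they also carried Cre and were heterozygous for both floxed alleles. Deficient embryos were Wnt1Cre/+;BAF155flox/flox;BAF170flox/flox;Rosa26mTmG/+, with both copies of each gene floxed. BAF155 and BAF170 are scaffold subunits of the BAF chromatin remodeling complex, and GFP in Rosa26mTmG cells records that Cre has acted. Wnt1-Cre is active in premigratory neural crest and also in the dorsal neural tube and midbrain, so a GFP+ gate can hold cells of the brain as well as NCCs. The question put to these counts was how much RNA of the patterning factors the sorted cells held, and whether it differed between the genotypes.

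In the embryo, Otx2 marks the forebrain and midbrain, and the border at its hind limit becomes the midbrain-hindbrain organizer, a strip of cells that signals to both sides through Fgf8 and Wnt1. Pax2, En1, Pax5, En2 and Lmx1b come on around this border and keep its signals going. Several of the 10 have other sites too: Pax2 and Pax8 in the ear and kidney, Pax5 in B cells, Lmx1a in the roof plate, and Lmx1b in the limb mesenchyme and in the mesenchyme around the eye.

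Counts on genes summed to between 8191219 and 19808620 per library, and all deficient libraries were deeper than all control libraries, so a count of 3 stood for 0.142 CPM in the deepest library and 0.401 CPM in the shallowest. CPM are counts scaled to library size, here after TMM normalization. The targeted genes stood as follows: Smarcc1, which encodes BAF155, had a log2 fold change of −0.71 (deficient over control, standard error 0.16, edgeR with Benjamini-Hochberg adjusted p = 0.0676), and Smarcc2, which encodes BAF170, one of −0.11 (standard error 0.058, edgeR with Benjamini-Hochberg adjusted p = 0.251). Gene counts do not separate the floxed exons from the rest of a transcript. The label NCC was set against marker lists. In the controls, 14 macrophage markers summed to between 12463 and 14412 CPM, led by Ctss, while 45 markers of crest derivatives (mesenchymal, sensory, autonomic and glial, led by Col1a2, Tubb3, Gata2 and Ednrb) summed to between 384 and 690 CPM. Macrophage genes therefore outweighed crest genes in every library. In the deficient libraries the macrophage sum lay between 14530 and 15874 CPM, above every control, and the crest sum between 242 and 316 CPM, below every control. Taken alone, the mesenchymal, sensory and autonomic sums were also below every control. The glial sum overlapped, with deficient replicate 1 (58.7 CPM) above control replicate 3 (51.9 CPM). All 6 tested glial genes had a log2 fold change below 0 and 1 was called lower by the rule given below, but Ednrb stood at −0.0084. Of the tested mesenchymal markers 11 of 17 were called lower, and of the sensory 5 of 10. Of the autonomic 0 of 6 were called, none of which reached 2 CPM. Their median log2 fold changes were −0.99, −1.40 and −0.94. Over all tested genes 4.88% were called lower. Each of the 14 macrophage markers had its higher mean in the deficient group, and none was called. The sum of 7 neutrophil markers, led by S100a8, was 17.1 to 22.5 CPM in the controls and 24.0 to 27.7 CPM in the deficient libraries. That of 8 endothelial markers, led by Kdr, was 182 to 204 and 209 to 223 CPM. Single genes were less uniform. Of 3 tested neutrophil genes, 2 had a log2 fold change above 0, while Ngp stood at −0.27. Of 6 tested endothelial genes, 5 had a log2 fold change above 0. None of these neutrophil and endothelial genes was called. The part of these cells in the differences below was not tested. In sorted bulk RNA, fewer cells of a type and less RNA per cell cannot be told apart, and that holds for each level given here.

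All 10 patterning factors were detected in every library, and all were rare. Single-library levels ran from 0.0950 to 7.34 CPM, and counts from 2 to 97. The median gene among the 13961 that passed the filter on low counts had a mean of 11.3 CPM, and 15.6% of those genes had a mean under 2 CPM. Of the 10 factors, 8 passed the filter, and 4 of these (En2, Pax2, Otx2 and Barhl1) reached a mean of 2 CPM. Pax8 and Lmx1a did not pass it and were not tested in the model. The mean of every factor was lower in the deficient libraries. A scaling to crest derivative markers raised the median of all tested genes by 1.01 on the log2 scale and put 4 of the 8 tested above 0. It moves all genes by nearly the same amount, so it leaves their place against that median almost unchanged by construction. None of the 8 tested was called differentially expressed, which needed an adjusted p no higher than 0.1, an absolute log2 fold change of 0.58 or more and a mean level of 2 CPM or more, the thresholds of the study's methods. Over all tested genes, 4.88% were called lower. By edgeR, 4 of the 8 had an unadjusted p under 0.05 with a lower mean, as had 15.2% of all tested genes, and 2, En1 and Lmx1b, an adjusted p of at most 0.1. That level was reached with a lower mean by 7.75% of all tested genes. En1 and Lmx1b were not called because their means were under 2 CPM. With the same thresholds limma-voom also called none of the 8, and DESeq2 called Barhl1. In 5 of the 8 (En1, Pax2, Pax5, Lmx1b and Barhl1) every deficient library lay below every control library, against 16.4% of all tested genes. The log2 fold change was below 0 in 8 of 8, against 52.3% of all tested genes, and its median was −1.10, against −0.02 over all tested genes.

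**Figure D1:**
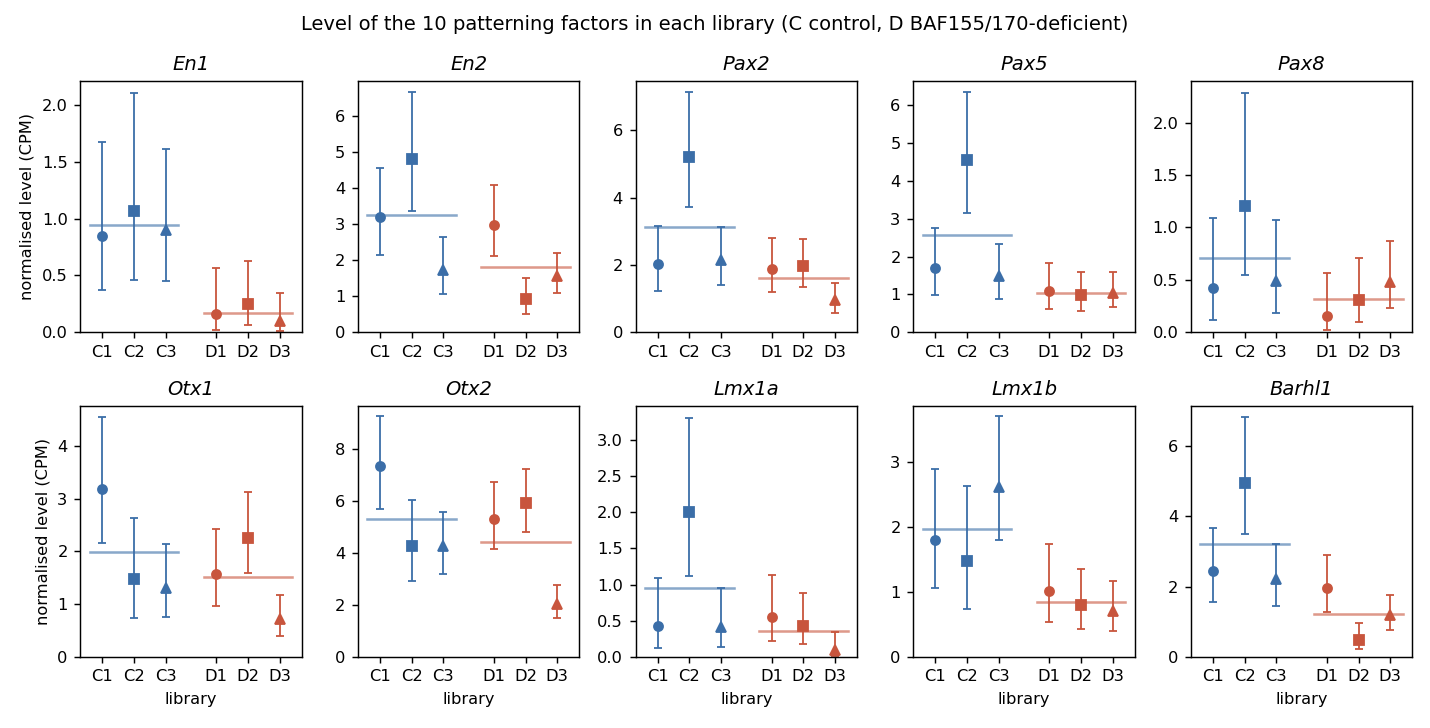
Normalised level (CPM, y axis, a scale of its own for each gene) of the 10 patterning factors in control libraries C1 to C3 (blue) and deficient libraries D1 to D3 (red), with 95% exact Poisson intervals of the counts as error bars and the group means as horizontal lines. The groups are apart in En1, Pax2, Pax5, Lmx1b and Barhl1, and 7 of the 10 genes are highest in C2.

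The engrailed genes encode homeodomain repressors that the midbrain and anterior hindbrain need to form. En1 (ENSMUSG00000058665.8, chromosome 1 of GRCm38 from 120602418 to 120607992, plus strand) stood at 0.851, 1.07 and 0.903 CPM in control replicates 1 to 3 and at 0.157, 0.244 and 0.0950 CPM in deficient replicates 1 to 3. The control values were close together, and all deficient values lay far under the lowest control. These levels rest on 8, 8 and 11 counts in the controls and 2, 4 and 2 counts in the deficient libraries. Single-library counting intervals still overlapped, the lowest control bound being 0.367 CPM and the highest deficient bound 0.626 CPM. Pooled over each group they did not, with 0.612 to 1.35 CPM in the controls against 0.0688 to 0.314 CPM in the deficient libraries (95% exact Poisson intervals, which cover counting error only). The control mean was 5.69 times the deficient mean. The log2 fold change was −2.47 (standard error 0.60, edgeR with Benjamini-Hochberg adjusted p = 0.0666), and the exact permutation p was 0.1, two-sided, the smallest that 3 against 3 libraries allow. The adjusted p was above 0.1 when control replicate 1 (0.222), control replicate 2 (0.211) or deficient replicate 3 (0.239) was left out of the edgeR fit with Benjamini-Hochberg adjustment.

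En2 (ENSMUSG00000039095.8, chromosome 5 from 28165694 to 28172166, plus strand), the paralog that follows En1 in the same territory, had 3.19, 4.82 and 1.72 CPM in the controls against 2.98, 0.917 and 1.57 CPM in the deficient libraries. Here the groups overlapped: deficient replicate 1 stood above control replicate 3. The log2 fold change was −0.83 (standard error 0.48), short of the threshold (edgeR with Benjamini-Hochberg adjusted p = 0.292), and it was −0.44 without control replicate 2. En2 counts were 87 in the controls together and 86 in the deeper deficient libraries together. With 173 counts in all, against 35 for En1, En2 was the better measured of the pair.

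Lmx1b (ENSMUSG00000038765.13, chromosome 2 from 33560965 to 33640511, minus strand) is a LIM-homeodomain factor of the organizer, of hindbrain serotonergic neurons and of several mesenchymes. It had 1.81, 1.47 and 2.63 CPM in the controls against 1.02, 0.794 and 0.712 CPM in the deficient libraries. The groups did not overlap, and Lmx1b was the only member with its highest control value in replicate 3 and its lowest in replicate 2. The control mean was 2.34 times the deficient mean, with a log2 fold change of −1.26 (standard error 0.39, edgeR with Benjamini-Hochberg adjusted p = 0.0901). That adjusted p was above 0.1 in 5 of the 6 edgeR fits that leave out a library (Benjamini-Hochberg, between 0.170 and 0.281), the exception being the fit without deficient replicate 1. With all 6 libraries it was 0.136 by DESeq2 and 0.0850 by limma-voom (Benjamini-Hochberg adjusted).

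The RefSeq promoter table (GRCm38.p6, windows from 250 bases before to 50 bases after a start) matched 8 of the 10 members, with 14 windows. En1 and Lmx1b are shown because they were the members with an adjusted p of at most 0.1 in the main edgeR fit. Each sequence is upstream only: that of En1 ends just before the gene's start in GENCODE M21, and that of Lmx1b just before the RefSeq start, which lies upstream of the GENCODE start. The En1 sequence covers chr1:120602237-120602417 on the plus strand, and the capitals mark a match to the AP-1 motif TGANTCA. The Lmx1b sequence covers chr2:33641099-33641348 on the minus strand and is written 5′ to 3′ along the gene. It has no capitals, as none of the 4 motifs searched on both strands is in it.
En1: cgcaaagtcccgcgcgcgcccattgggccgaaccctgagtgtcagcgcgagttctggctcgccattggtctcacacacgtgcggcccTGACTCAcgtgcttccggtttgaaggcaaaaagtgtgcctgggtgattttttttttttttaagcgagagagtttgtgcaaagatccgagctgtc
Lmx1b: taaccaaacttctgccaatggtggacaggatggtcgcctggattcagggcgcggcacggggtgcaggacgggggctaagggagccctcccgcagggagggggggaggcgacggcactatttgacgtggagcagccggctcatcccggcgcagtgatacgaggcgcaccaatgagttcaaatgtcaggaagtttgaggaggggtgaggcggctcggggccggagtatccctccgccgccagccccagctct

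The 4 motifs were the Tead motif CATTCC, the AP-1 motif TGANTCA, the Otx motif TAATCC and the homeodomain core TAATTA. Of the 32851 RefSeq mouse windows, 14.7%, 7.81%, 7.06% and 5.29% held them in this order. Among the members, the Tead letters occurred in a window of Lmx1a and of Barhl1, the AP-1 letters in that of En1, and the Otx letters and the homeodomain core in windows of Otx2 and of Barhl1. A match is a run of letters and not a bound site. The 14 windows were between 41.7% and 71.7% GC, with a median of 52.7% over all windows.

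Pax2, Pax5 and Pax8 make up the Pax2/5/8 subfamily of paired-box factors. Pax2 is the first of them at the organizer, where Pax5 follows. Pax2 (ENSMUSG00000004231.15, chromosome 19 from 44756045 to 44837871, plus strand) had 2.02, 5.22 and 2.13 CPM in the controls against 1.88, 1.96 and 0.950 CPM in the deficient libraries. The groups did not overlap, but control replicates 1 and 3 stood only just above deficient replicates 1 and 2, and control replicate 2 was 2.51 times the mean of the other control libraries. The log2 fold change was −0.95 (standard error 0.44, edgeR with Benjamini-Hochberg adjusted p = 0.188), and −0.40 without control replicate 2.

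Pax5 (ENSMUSG00000014030.15, chromosome 4 from 44524757 to 44710487, minus strand) had 1.70, 4.55 and 1.48 CPM in the controls against 1.10, 0.978 and 1.04 CPM in the deficient libraries. The deficient values were nearly alike, all below the lowest control, and control replicate 2 again stood highest, at 2.86 times the mean of the other controls. The log2 fold change was −1.25 (standard error 0.45, edgeR with Benjamini-Hochberg adjusted p = 0.114), and −0.60 without control replicate 2. A pair of genes on the opposite strand, 5730488B01Rik and Gm12462, share 7.18% and 1.41% of the exon bases of Pax5, and none of them had more than 6 counts in a library. Pax5 is also the B cell factor, so 10 genes of the B lineage were read beside it. Their sum overlapped between the groups, with 75.7 to 82.2 CPM in the controls against 72.2 to 77.6 CPM in the deficient libraries, but its 2 tested genes went different ways. Blnk, which macrophages express too, had 64.6 ± 8.50 CPM against 70.0 ± 3.32 CPM (SD, n = 3) and was not called. Ebf1, which neural crest mesenchyme and neurons express too, was called lower, with 13.7 ± 5.32 CPM against 4.31 ± 0.200 CPM (SD, n = 3), a log2 fold change of −1.65 (standard error 0.25, edgeR with Benjamini-Hochberg adjusted p = 0.0393) and no overlap. Ebf1 was named after its values were seen. Vpreb3, a gene of early B cells, had 0 counts in all 6 libraries.

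Pax8 (ENSMUSG00000026976.15, chromosome 2 from 24420560 to 24475599, minus strand) was the rarest member per length and had 4, 9 and 6 counts in the controls and 2, 5 and 10 counts in the deficient libraries. That is 0.425, 1.20 and 0.492 CPM against 0.157, 0.306 and 0.475 CPM. The groups overlapped, deficient replicate 3 standing above control replicate 1 (exact permutation test, two-sided, p = 0.2), and the opposite-strand gene Gm13415, which shares 6.06% of its exon bases, had up to 5 counts.

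As Pax2 and Pax8 are known in ear and kidney, markers of both were read. The 8 otic markers summed to between 14.5 and 22.2 CPM in the controls against between 8.55 and 14.4 CPM in the deficient libraries, but Oc90, Tectb and Otol1, the otic genes in the narrow sense, had at most 5 counts each over all libraries. The 7 nephric markers, led by Lhx1, summed to 8.29 to 16.5 CPM in the controls against 3.24 to 3.61 CPM in the deficient libraries. The 2 tested among them were Lhx1 (6.92 against 1.93 CPM on average) and Gata3 (2.29 against 0.620 CPM). Both stand in other lists here, Lhx1 among the LIM-homeodomain relatives and Gata3 among the autonomic markers. Wt1 had 7 counts in all. The part of such cells in the Pax2 and Pax8 levels was not tested. No gene of the 6 epithelial markers passed the filter on low counts, and Cdh1, the highest of them, had 43 counts in all.

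The Otx genes encode homeodomain factors that set forebrain and midbrain against hindbrain. Otx2 (ENSMUSG00000021848.15, chromosome 14 from 48657677 to 48673819, minus strand) was the most abundant member, with 7.34, 4.28 and 4.27 CPM in the controls against 5.33, 5.93 and 2.04 CPM in the deficient libraries. Deficient replicates 1 and 2 stood above control replicates 2 and 3, and deficient replicate 3 stood below all others. Its log2 fold change was −0.28 (standard error 0.40, edgeR with Benjamini-Hochberg adjusted p = 0.703), and it turned to 0.037 without control replicate 1 and to 0.088 without deficient replicate 3. Otx2os1, on the opposite strand, shares 3.65% of the exon bases of Otx2 and had at most 1 count in a library. Gm49154, on the same strand, shares 3.98%. Otx2 is the 1 member whose identifier has another version in GENCODE M21 (ENSMUSG00000021848.16), from which its coordinates and exons were taken.

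Otx1 (ENSMUSG00000005917.15, chromosome 11 from 21994764 to 22002897, minus strand) followed the same order of libraries, with 3.19, 1.47 and 1.31 CPM in the controls against 1.57, 2.26 and 0.712 CPM in the deficient libraries. The groups overlapped, deficient replicates 1 and 2 standing above control replicates 2 and 3. The log2 fold change was −0.41 (standard error 0.49, edgeR with Benjamini-Hochberg adjusted p = 0.625), and 0.11 without control replicate 1. Over the 6 libraries Otx1 and Otx2 had the highest Pearson r of any pair of tested members, 0.96 on log2 CPM, a description of 6 points that share their libraries.

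Lmx1a (ENSMUSG00000026686.14, chromosome 1 from 167689237 to 167848741, plus strand), the roof plate relative of Lmx1b, had 4, 15 and 5 counts in the controls and 7, 7 and 2 counts in the deficient libraries. The level was 0.425, 2.01 and 0.410 CPM against 0.548, 0.428 and 0.0950 CPM. Control replicate 2 was at 4.80 times the mean of the other controls and deficient replicate 3 was lowest, while deficient replicates 1 and 2 stood above control replicates 1 and 3, so the groups overlapped (exact permutation test, two-sided, p = 0.6).

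Barhl1 (ENSMUSG00000026805.14, chromosome 2 from 28907679 to 28916668, minus strand), a homeodomain factor of midbrain and hindbrain neurons including cerebellar granule cell precursors, had 2.45, 4.95 and 2.22 CPM in the controls against 1.96, 0.489 and 1.19 CPM in the deficient libraries. The groups did not overlap, with control replicate 2 highest and deficient replicate 2 lowest. The control mean was 2.65 times the deficient mean, with a log2 fold change of −1.40 (standard error 0.49) that just missed the threshold (edgeR with Benjamini-Hochberg adjusted p = 0.109). It was called by DESeq2 (Benjamini-Hochberg adjusted p = 0.0764), by edgeR with library totals in place of TMM (adjusted p = 0.0956), and by edgeR when control replicate 3 (0.0664) or deficient replicate 1 (0.0623) was left out, while the other 4 fits that leave out a library gave between 0.202 and 0.346 (Benjamini-Hochberg adjusted). Without control replicate 2 it was −0.97.

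**Figure D2:**
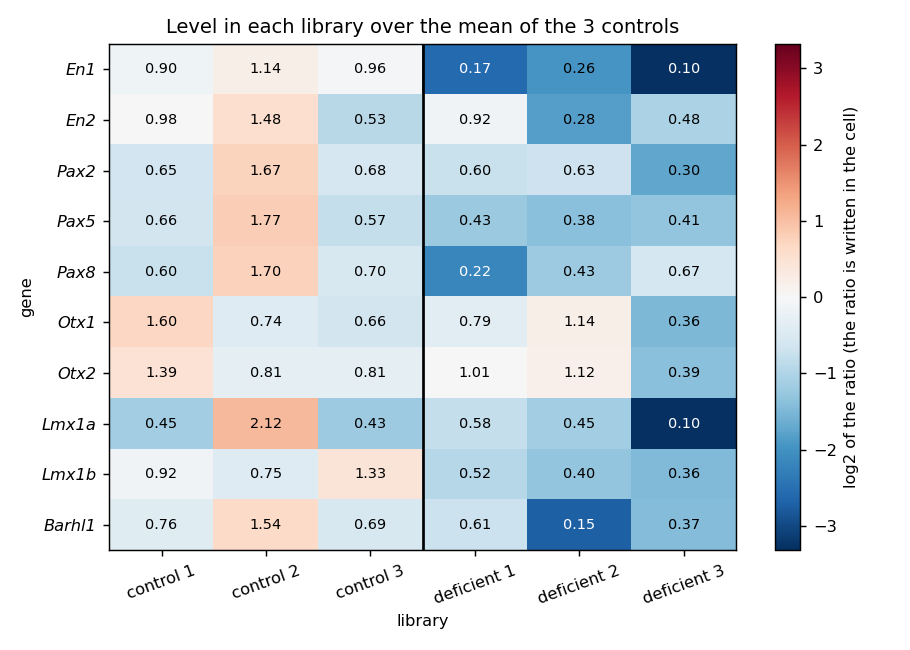
Level of each patterning factor (rows) in each library (columns) divided by the mean of the 3 controls; the ratio is written in the cell and the color is its log2. Control 2 holds the highest ratio in 7 rows, Otx1 and Otx2 peak in control 1 instead, Lmx1b peaks in control 3, and 6 rows are lowest in deficient 3.

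The members did not vary as 1 block over the libraries. Control replicate 2 held the highest value of En1, En2, Pax2, Pax5, Pax8, Lmx1a and Barhl1, while Otx1 and Otx2 were highest in control replicate 1. The lowest value was in deficient replicate 3 for 6 members, in deficient replicate 2 for 3 and in deficient replicate 1 for 1. After the Otx pair, En2 with Barhl1 (Pearson r = 0.93), Pax2 with Pax5 (r = 0.88) and En1 with Lmx1b (r = 0.87) were the closest pairs on log2 CPM over the 6 libraries, and Otx1 with Barhl1 (r = −0.01) the least close. The crest derivative markers were also highest in control replicate 2, at 690 CPM, against 479 and 384 CPM in control replicates 1 and 3. So were the erythroid markers, led by Hbb-y, with 68.5 CPM in control replicate 2 and 10.5 to 26.2 CPM elsewhere, and the macrophage sum was lowest there.

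Levels between genes were compared per kb of merged exon. In the controls Otx2 stood first with 1.25 ± 0.42 CPM per kb (SD, n = 3), followed by En2 with 0.916 ± 0.437, Barhl1 with 0.820 ± 0.388 and Pax2 with 0.578 ± 0.335. Then came Lmx1b with 0.403 ± 0.122, Otx1 with 0.367 ± 0.192 and En1 with 0.359 ± 0.0437 CPM per kb. Pax5 with 0.291 ± 0.193, Lmx1a with 0.279 ± 0.270 and Pax8 with 0.117 ± 0.0712 CPM per kb stood last. No 2 neighbours in this order were apart, as the ranges of their control libraries overlapped each time. In the deficient libraries Otx2 remained highest per kb (1.05 ± 0.50, SD, n = 3), and En1 had 0.0630 ± 0.0286 CPM per kb, near Pax8 with 0.0515 ± 0.0263.

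The patterning factors were then set against the crest derivative markers. Summed, the 10 factors came to 24.0 ± 6.76 CPM in the controls against 13.3 ± 4.0 CPM in the deficient libraries (SD, n = 3), with no overlap. The 45 crest derivative markers came to 518 ± 156 and 270 ± 40.5 CPM, also with no overlap. The factors as a share of the crest sum were 4.65 ± 0.21% in the controls and 4.91 ± 1.23% in the deficient libraries, and these groups overlapped. En1 alone was 0.189 ± 0.0412% of the crest sum in the controls and 0.0628 ± 0.0336% in the deficient libraries, with no overlap. This ratio was taken only for En1, the member with the lowest log2 fold change. It rests on 2, 4 and 2 En1 counts in the deficient libraries.

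**Figure D3:**
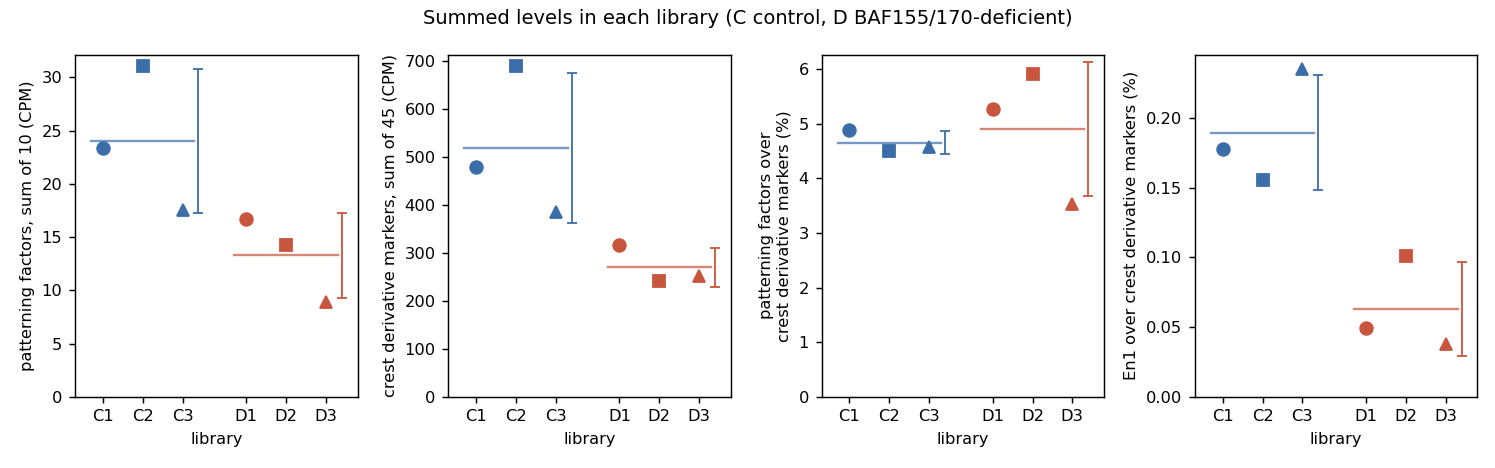
From left to right, the summed level of the 10 patterning factors (CPM), that of the 45 crest derivative markers (CPM), the first as a percentage of the second, and En1 as a percentage of the second, in control (C, blue) and deficient (D, red) libraries, with the mean (line) and SD (bar, n = 3). Both sums are lower in every deficient library, their ratio overlaps at 4.65% and 4.91% on average, and the En1 ratio does not overlap.

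In an alternative fit the libraries were scaled to the 29 tested crest derivative markers of at least 2 CPM instead of by TMM. This scaling removes any change these markers share and moved the all-gene median of the log2 fold change up by 1.01, to 0.99. The median of the 8 members became 0.025. En1 stayed lower, at −1.46 (standard error 0.72, edgeR with Benjamini-Hochberg adjusted p = 0.0615), against −2.47 (standard error 0.60) with TMM. The adjusted p under crest scaling cannot be set beside that with TMM, as the adjustment raises p little where most genes are called. Barhl1 and Lmx1b were at −0.32 each and Pax5 at −0.11. Pax2 (0.16), En2 (0.25), Otx1 (0.61) and Otx2 (0.72) turned positive. Otx2 was called higher (edgeR with Benjamini-Hochberg adjusted p = 0.0726), as were 68.9% of all tested genes under this scaling. Every member was below the median of all genes, as with TMM, because this scaling moves all genes by nearly the same amount.

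**Figure D4:**
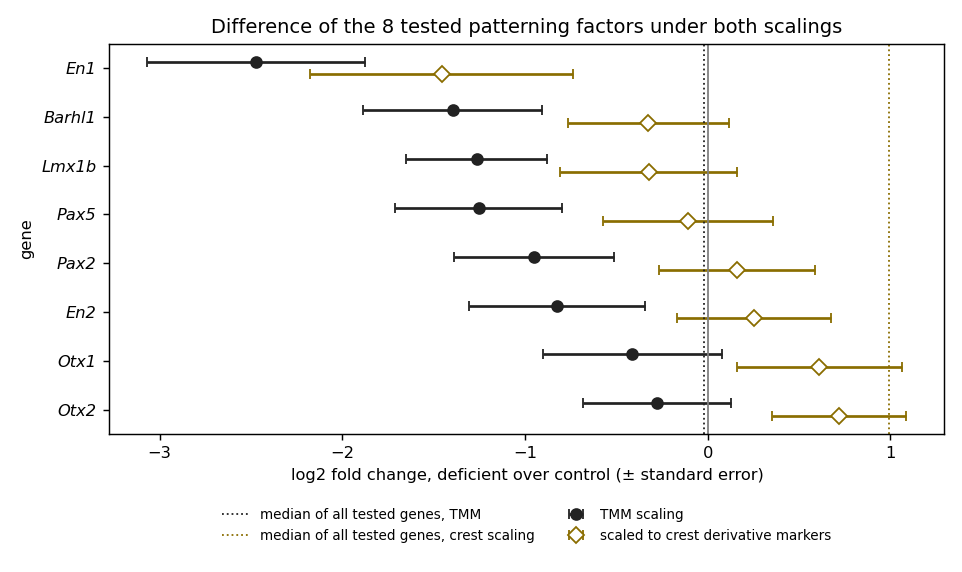
Log2 fold change (x axis, deficient over control, bars ± 1 standard error) of the 8 tested patterning factors with TMM scaling (filled) and with scaling to the crest derivative markers (open), and the median of all tested genes under each (dotted, −0.02 and 0.99). With TMM all 8 are below 0, from −2.47 in En1 to −0.28 in Otx2, while under crest scaling En1 is at −1.46 and 4 of the 8 are above 0.

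Genes that act with the patterning factors were read in 7 lists, 114 genes in all, of which 62 were tested. By edgeR, 12 of the 62 were called lower and none higher, 31 had an unadjusted p under 0.05, all of them lower, and their median log2 fold change was −0.82. DESeq2 called 14 lower and limma-voom 12, and neither called any higher. Over all tested genes 4.88% were called lower and 15.2% had an unadjusted p under 0.05 with a lower mean. With the scaling to crest derivative markers, 0 of the 62 were called lower and 12 higher, with a median of 0.22. Fewer, 10 of the 62, had an unadjusted p under 0.05 by edgeR under this scaling, all of them higher. There 68.9% of all tested genes were called higher and their median was 0.99. The median of the 62 lay below that of all genes under both scalings, as a near-uniform shift must leave it. Without control replicate 1 or deficient replicate 3 no gene of the lists was called, with 22 at an unadjusted p under 0.05 each time. Of the 22 without control replicate 1, 1 was higher. Leaving out control replicate 2 or deficient replicate 2 left 2 called each time. Over all genes these fits called few too: 0 and 17 in the first pair, 61 and 264 in the second, against 689 with all libraries. The directions below are those with TMM.

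Of 19 organizer signals and partners, 13 were tested, all 13 had a lower mean and 4 were called lower, with a median of −0.87. The called genes were Meis2, a TALE homeodomain partner of Otx2 in the midbrain (23.0 ± 3.39 CPM in the controls against 11.6 ± 4.06 in the deficient libraries, SD, n = 3, log2 fold change −1.0), Il17rd, an inhibitor of Fgf signaling also called Sef (−1.0), and the Iroquois factors Irx3 (−1.40) and Irx2 (−0.87). Wnt1, the organizer signal whose promoter drives the Cre, had 0.851, 0.936 and 0.821 CPM in the controls against 0.548, 0.306 and 0.332 CPM in the deficient libraries. Wnt1 did not overlap between the groups and did not pass the threshold (log2 fold change −1.15, standard error 0.51, edgeR with Benjamini-Hochberg adjusted p = 0.170). Fgf8, the other organizer signal, had 23 counts over the 6 libraries and Gbx2, which opposes Otx2 on the hindbrain side, 25, both too few to be tested. Wnt1, Fgf8 and Gbx2 are given for their roles and fall outside the rule by which genes were named.

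Of 18 genes of the dorsal neural tube and roof plate, 12 were tested and 1, Msx1, a homeodomain target of BMP signals, was called lower (5.55 ± 2.18 CPM against 2.28 ± 0.879, SD, n = 3, log2 fold change −1.29), with a median of −0.74. Of 16 hindbrain segment genes, 11 were tested and none was called by edgeR, with 5 at an unadjusted p under 0.05, all lower, and a median of −0.76, while DESeq2 and limma-voom called 1 each. Egr2, among its most abundant genes (log2 fold change −0.01), is also expressed by macrophages. Of 15 ventral midbrain and dopaminergic genes 3 were tested, with a median of −0.20. The highest of these were Nr4a2 (−0.20) and Slc18a2 (−0.97), neither called by edgeR, DESeq2 or limma-voom, and Th, which makes dopamine, had 20 counts in all. Of 14 forebrain genes 3 were tested, with a median of 0.12. Lhx2 had 94.3 ± 9.89 and 105 ± 5.31 CPM (SD, n = 3) and Dmrta2 a log2 fold change of −1.44, and neither was called by edgeR, DESeq2 or limma-voom. In both short lists 1 gene had an unadjusted p under 0.05.

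Among 20 relatives of the members (other Pax, Otx-type, Barh-type and LIM-homeodomain genes), 11 were tested and 3 called lower, with a median of −1.28: Lhx1 (6.92 ± 2.77 CPM in the controls, 1.93 ± 0.122 in the deficient libraries, SD, n = 3, log2 fold change −1.81), Isl1 (−1.28), which specifies sensory and motor neurons, and Lhx5 (−1.41). Of 18 neural progenitor genes, 15 were tested, all 15 had a lower mean and 4 were called lower, with a median of −0.61. They were the intermediate filament gene Nes (−0.61), the adhesion genes Ncam1 (−1.21) and Cdh2 (−0.98), and Sox3 (−1.30). Some genes stand in more than 1 list, and neural crest derivatives express several of them, Cdh2, Ncam1, Nes and Isl1 among these.

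**Figure D5:**
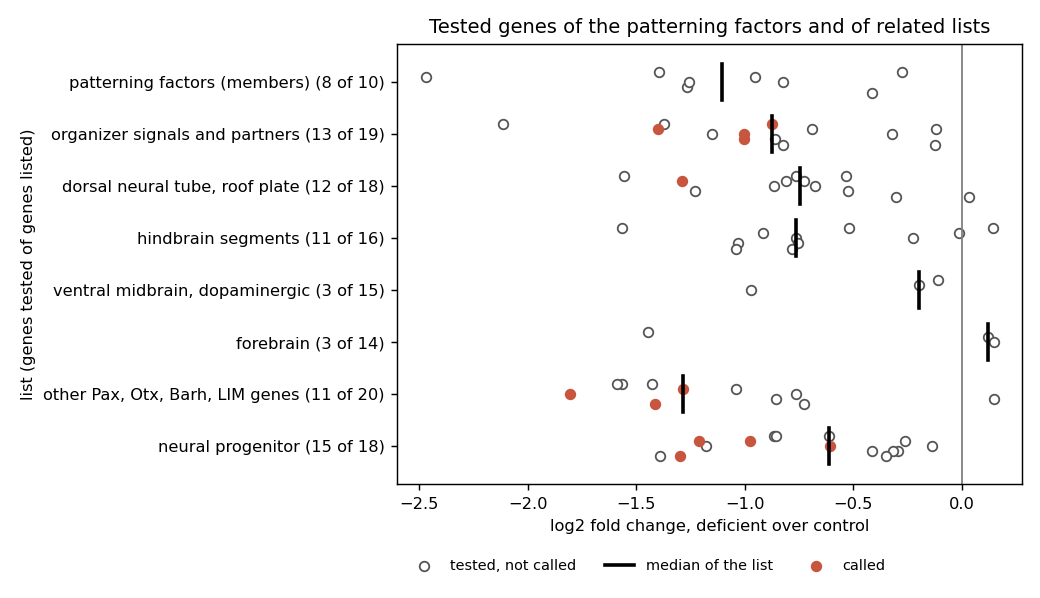
Log2 fold change (x axis, deficient over control) of each tested gene of the patterning factors and of 7 related lists (rows, with genes tested of genes listed), filled where called, with the list median as a black bar; vertical offsets within a row only separate points. The median of the patterning factors is −1.10, those of the related lists run from −1.28 to 0.12, and all called genes lie below 0.

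For each tested member the genes with the most similar profile over the 6 libraries were searched among 11783 genes with a mean of at least 2 CPM, by Pearson r of log2 CPM. They were Cyp26b1, Msh3 and Gm42664 for En1, Gm10282, Nedd9 and Dut for En2, Epg5 and Dhx57 for Pax2, and Tsc22d2, Smpd3 and Mmp15 for Pax5. For Otx1 they were Plekhg3, Dtd1 and Suco, for Otx2 Gcat, Hook1 and Rexo5, for Lmx1b Ncl, Zfp672 and Rad18, and for Barhl1 Ncan, Recql and 4930516B21Rik. All r lay between 0.979 and 0.998, values that the best of so many genes can reach over 6 points. Cyp26b1, which degrades retinoic acid and stood first for En1 (r = 0.993), had a log2 fold change of −1.41, and Ncan, a brain proteoglycan that stood first for Barhl1 (r = 0.997), one of −1.10.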

How the data were processed

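GFP+ cells of 3 control and 3 deficient embryos were sequenced as strand-specific poly(A) libraries. The authors trimmed the paired-end reads, mapped them with STAR on GRCm38 and summarised them per gene by featureCounts of Rsubread. The deposited values are whole-number counts per gene, without normalization. Which annotation was used, whether counting was by strand and how multi-mapped reads were handled is not given in the sources used here, so reads of overlapping genes on opposite strands may be mixed. The study's methods name 3 embryos per genotype, and each p measures only the spread between these samples.

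Identifiers were matched without version to GENCODE M21 (46488 of 46983 named). Counts were fitted with edgeR 4.0.16 in R 4.3.3: filterByExpr (minimum count 10, minimum total 15), TMM, robust quasi-likelihood test, condition as the only term, Benjamini-Hochberg over all 13961 genes. Intervals and the floor of 3 counts cover counting error only. Alternatives were DESeq2 1.42.0, limma-voom (limma 3.58.1, the tool of the study), library totals, scaling to crest derivative markers, other filters and thresholds, a replicate block, a lowess length correction (span 0.3) and leaving out each library. The rule for naming genes beyond the members was the called genes of highest mean CPM in each list, at most 4, or the 2 highest tested where none was called, the highest marker of each cell type, and the 3 genes most like each member (log2 CPM, prior count 2). The members and lists were chosen with earlier results of these data known. Motifs were searched in RefSeq promoter windows. A few genes that this rule names are not reported here.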

Additional observations from a re-analysis of the deposited data

How the results depend on the processing

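The 0 calls among the 10 patterning factors became 1 with DESeq2, library totals or no filter on low counts (Barhl1 each time), 1 with scaling to crest derivative markers (Otx2, higher), 2 with adjusted p alone (En1 and Lmx1b) and 2 with the replicate block (Barhl1 and Pax2), and lay between 0 and 1 when a library was left out. It stayed at 0 with limma-voom, the strict filter (which removed En1, Pax5, Otx1 and Lmx1b), the length correction and an adjusted p of at most 0.05. The Otx2 call under crest scaling had an unadjusted p of 0.05 or more by edgeR. The median log2 fold change of −1.10 lay between −1.31 and −0.58 when a library was left out, the smallest without control replicate 2, and was 0.025 with crest scaling, where the median of all genes was 0.99. The calls among the related lists were 12, became 20 with the replicate block and 1 at an adjusted p of at most 0.05, and lay between 0 and 22 when a library was left out. Over all genes 689 were called, 1164 with the block and 9661 with crest scaling. When a library was left out it was between 0 (without control replicate 1) and 1245 (without control replicate 3). The 108 alternative values of single members were compared by direction and by an adjusted p of 0.1 alone, not by the full rule for a call. Of these, 81 kept direction and side of that adjusted p, 10 rose above it and 10 came to it or below. The other 7 turned: with crest scaling En2 (0.25), Pax2 (0.16), Otx1 (0.61) and Otx2 (0.72), without control replicate 1 Otx1 and Otx2 (0.037), and without deficient replicate 3 Otx2. Over the libraries left out Otx1 ran from −0.85 to 0.11 and Otx2 from −0.56 to 0.088. The cause was not tested. The replicate numbers are not stated to pair samples, and same-numbered libraries correlated at 0.03, −0.03 and 0.29 in their deviations from group means, while control replicate 2 correlated best with deficient replicate 1 (0.26), so the block was not used as the main fit. Depth limits all of this: 3 counts are 0.142 to 0.401 CPM, and En1, Pax8 and Lmx1a lie near that.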
